A study of Mus musculus with 13 samples.

Results

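Sirt2, Cab39l, Slc36a1, Clec9a, Fam91a1, Isca2, Naa38, and Znhit1 are 8 genes that were listed mainly in CLPs of Notch1+/ΔTAD mice. They were chosen by their symbols from the 24972 genes of the deposited tables, of which 10149 were above 0 in at least 1 library. The members were selected on their expression values, because the 3 Notch1+/ΔTAD libraries lay above every library of WT or of Notch1+/- mice. The choice used the values of all 3 genotypes, so the members' levels are given as a description without a test. All animals were adult C57BL/6 mice of 6 to 12 weeks of age, of both sexes in the study as a whole, and the labels give no sex for a library. CLPs were sorted from the BM of each mouse as DAPI-/Lin-/Sca1Lo/cKitLo/CD127+/CD135+ cells. The 5 WT mice (libraries 1, 2, 3, 10, and 11) carried both Notch1 alleles intact. The 5 Notch1+/- mice (libraries 4, 5, 6, 12, and 13) had 1 functional allele, and the 3 Notch1+/ΔTAD mice (libraries 7, 9, and 14) had 1 allele without the transactivation domain beside a WT allele. Each library came from 1 mouse and was read by 3′ RNA-Seq, and abundance was given as TPM, transcript abundances that sum to 1000000 in each library.

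CLPs are BM progenitors that express the IL-7 receptor and Flt3 and give rise to B cells, T cells, NK cells, and a share of dendritic cells. Ligand binding releases the intracellular domain of Notch1, which joins RBPj on DNA and recruits coactivators, in part through its transactivation domain, so a receptor without this domain can still occupy RBPj. The 8 genes do not belong to a single pathway. Sirt2 encodes an NAD-dependent deacetylase that is mainly cytoplasmic. Cab39l encodes MO25β, a scaffold that holds the kinase LKB1 and the pseudokinase STRAD in their active complex. Slc36a1 encodes a proton-coupled carrier that moves small amino acids across the lysosomal membrane. Clec9a encodes DNGR-1, the receptor by which cross-presenting dendritic cells sense filamentous actin of dead cells. Fam91a1 encodes a protein that helps to capture endosome-derived vesicles at the trans-Golgi network. Isca2 serves the late steps of mitochondrial iron-sulfur cluster assembly, Naa38 is an auxiliary subunit of the N-terminal acetyltransferase NatC, and Znhit1 is a subunit of the SRCAP complex, which places the histone variant H2A.Z in chromatin.

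The genes lay on 7 chromosomes of GRCm38, the build that mm10 names. In GENCODE M21, Sirt2 was annotated at chr7:28766735-28788661, Cab39l at chr14:59440972-59585764, Slc36a1 at chr11:55204350-55236330, and Clec9a at chr6:129408862-129424763, all on the plus strand. Fam91a1 was at chr15:58415468-58457740, Isca2 at chr12:84773251-84775088, and Naa38 at chr11:69395487-69396680 on the plus strand, and Znhit1 was at chr5:136982164-136988021 on the minus strand. Slc36a1 and Naa38 shared chromosome 11 but did not lie next to each other. All 8 were protein-coding. The annotated 3′ untranslated region, where 3′ libraries place their reads, ran from 51 bases in Naa38 and 78 in Znhit1 to 2811 in Fam91a1 and 3695 in Slc36a1 in the transcript with the longest coding sequence.

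The 250 bases before the members' RefSeq starts were searched for 5 short motifs on both strands. Windows were matched for 6 of the 8 genes, all but Fam91a1 and Naa38, with a second start each for Cab39l and Znhit1, which gave 8 windows. The core of the RBPj site, TGGGAA, was in 0 of the 8 windows and in 21.6% of all 32851 mouse windows. The E-box CACGTG was in 2 of 8 (Slc36a1 and Znhit1) against 6.02% of all, the ETS core CCGGAA in 2 of 8 (Isca2 and Znhit1) against 12%, the GC box GGGCGG in 2 of 8 (Sirt2 and Isca2) against 32.7%, and CCAAT in 3 of 8 against 33.8%. No motif was present in every member, and a match to such short letters is a description of the window only. The stretches outside annotated exons are shown for Sirt2, Cab39l, Slc36a1, and Isca2 to let the windows be compared. They were read from GRCm38.p6 on the plus strand at chr7:28766641-28766734, chr14:59440885-59440962, chr11:55204090-55204339, and chr12:84773153-84773250. They run 5′ to 3′, and capitals mark the motifs.
Sirt2: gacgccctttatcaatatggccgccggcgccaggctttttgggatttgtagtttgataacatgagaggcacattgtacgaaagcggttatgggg
Cab39l: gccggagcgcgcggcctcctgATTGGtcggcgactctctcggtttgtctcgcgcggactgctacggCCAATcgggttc
Slc36a1: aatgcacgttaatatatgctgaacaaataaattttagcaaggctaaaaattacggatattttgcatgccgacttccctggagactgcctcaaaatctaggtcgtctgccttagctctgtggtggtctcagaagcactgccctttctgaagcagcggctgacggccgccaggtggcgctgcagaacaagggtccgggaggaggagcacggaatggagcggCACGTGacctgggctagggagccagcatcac
Isca2: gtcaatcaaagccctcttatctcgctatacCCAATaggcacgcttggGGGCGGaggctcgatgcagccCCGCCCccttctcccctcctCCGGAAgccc
The Cab39l stretch held CCAAT on both strands, the Slc36a1 stretch held 1 E-box, the Isca2 stretch held GC boxes, an ETS core, and CCAAT, and the Sirt2 stretch held none of the 5.

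WT libraries listed 3179 to 3855 genes at 1 TPM or more, Notch1+/- libraries 2818 to 4736, and Notch1+/ΔTAD libraries 3984 to 4663. Between 49.4% and 60.1% of a library's TPM lay in its 100 highest genes. TPM carry no read counts, so the depth behind a value is unknown, and genes that most cells need were listed at 0 in many libraries (Srcap in 12 of 13). Pearson's r of log2(TPM + 1) over 10149 genes was 0.434 to 0.535 for pairs of libraries of the same genotype and 0.434 to 0.560 for pairs of different genotypes. The TPM of Notch1 itself, 0 to 25.7 in WT, 9.27 to 78.5 in Notch1+/-, and 0.893 to 35.0 in Notch1+/ΔTAD CLPs, overlapped between genotypes and cannot check them. Of the genes of the sort gate, Flt3 was above 0 in all 13 libraries (5.21 to 282 TPM) and Il7r in 12 of 13, whereas Kit and Ly6a were at 0 in at least 1 library of each genotype.

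Sirt2, Cab39l, Slc36a1, Clec9a, and Fam91a1, written here as the 5 separated members, were at or near 0 in all 10 WT and Notch1+/- libraries and well above it in each Notch1+/ΔTAD library. Sirt2 was at 210 TPM in Notch1+/ΔTAD library 7, 261 TPM in library 9, and 58.8 TPM in library 14. It was listed at 0 in the 5 WT libraries and in 4 Notch1+/- libraries, with 0.330 TPM in Notch1+/- library 12. Sirt2 thus had the highest level of the 5 and was above 61.9% of the genes at 1 TPM or more even in the library where it was lowest.

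Cab39l was at 42.0, 91.6, and 40.6 TPM in the Notch1+/ΔTAD libraries 7, 9, and 14. Elsewhere it was listed at 0.300 TPM in WT library 2 and 0.133 TPM in Notch1+/- library 13, and at 0 in the other 8. It varied least among the 8 genes within Notch1+/ΔTAD, with a highest value 2.26 times the lowest. Slc36a1 was at 24.6, 65.6, and 20.8 TPM in libraries 7, 9, and 14. It was listed at 0 in all 10 libraries of the other genotypes, so no fold change can be given.

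Clec9a was at 39.3, 11.1, and 41.2 TPM in the Notch1+/ΔTAD libraries 7, 9, and 14 and at 0 in all 10 other libraries. Its order ran against that of Sirt2, Cab39l, and Slc36a1, since library 9 was its lowest and their highest. Fam91a1 was at 8.42, 40.3, and 13.2 TPM in libraries 7, 9, and 14 and at 0 in all 10 others. It had the lowest mean of the 8 genes in Notch1+/ΔTAD, although Clec9a was lower in library 9, and it was above 16.5% to 45.2% of the genes at 1 TPM or more in its library.

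Isca2, Naa38, and Znhit1 were above every WT library but not above every Notch1+/- library. Isca2 was at 279, 381, and 84.2 TPM in the Notch1+/ΔTAD libraries 7, 9, and 14 and at 0 in all 5 WT libraries. In Notch1+/- it was at 93.6 TPM in library 5, 254 TPM in library 13, and 0 in the other 3. The Notch1+/ΔTAD library with the least Isca2 was therefore below both of these Notch1+/- libraries.

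Naa38 was at 40.9, 90.1, and 325 TPM in the Notch1+/ΔTAD libraries 7, 9, and 14 and at 0 in all 5 WT libraries. Notch1+/- library 12 had 302 TPM and library 13 had 44.5 TPM, and the other 3 were at 0. Its values within Notch1+/ΔTAD differed most among the 8 genes, with a highest value 7.94 times the lowest. Znhit1 was at 56.3, 159, and 65.9 TPM in libraries 7, 9, and 14. It reached 164 TPM in Notch1+/- library 5, above all 3 Notch1+/ΔTAD libraries, and was otherwise at 0.550 TPM in Notch1+/- library 13, 0.237 TPM in WT library 3, and 0 in the other 7.

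**Figure D1:**
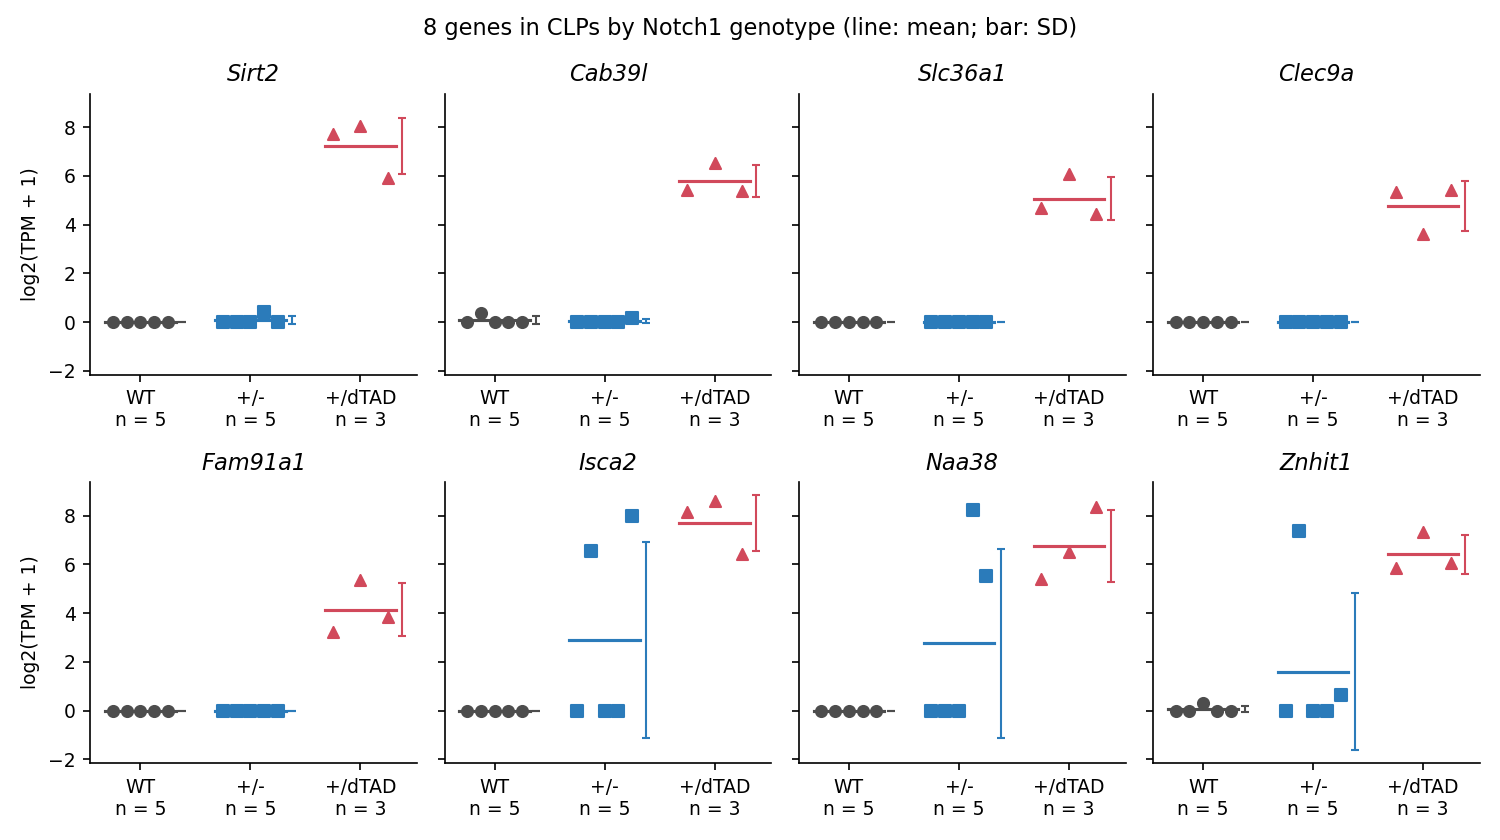
Each point is the log2(TPM + 1) of 1 gene in 1 library, by genotype (5 WT, 5 Notch1+/-, and 3 Notch1+/ΔTAD libraries), with a line at the mean and a bar of ± 1 SD beside it. Sirt2, Cab39l, Slc36a1, Clec9a, and Fam91a1 are near 0 in 10 libraries, whereas Isca2 and Naa38 are also high in 2 Notch1+/- libraries each and Znhit1 in 1.

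As a mean over the 3 Notch1+/ΔTAD libraries, the levels were 248 ± 151 TPM for Isca2, 176 ± 105 TPM for Sirt2, and 152 ± 152 TPM for Naa38 (SD, n = 3). They were 93.9 ± 57.0 TPM for Znhit1, 58.1 ± 29.0 TPM for Cab39l, 37.0 ± 24.9 TPM for Slc36a1, 30.5 ± 16.9 TPM for Clec9a, and 20.6 ± 17.2 TPM for Fam91a1 (SD, n = 3). Neighbors in this order differed by less than the larger of their 2 SDs in every case. TPM divide by transcript length, which 3′ reads do not follow, so the order between genes is uncertain on this scale as well. Of the 8 genes, 6 were highest in library 9 and 2, Clec9a and Naa38, in library 14, and 4 were lowest in library 14, 3 in library 7, and 1 in library 9. The members thus did not share 1 order among the Notch1+/ΔTAD libraries. In bulk RNA, fewer cells with a transcript and less of it per cell cannot be told apart, so each of these levels may stand for a few cells or for many.

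The choice of the members fixed their separation, and all genes give its background. Every Notch1+/ΔTAD library was above every WT library for 8 of the 8 members and for 159 of 10149 genes (1.57%). Every Notch1+/ΔTAD library was above every Notch1+/- library for 5 of the 8 and for 163 genes (1.61%). Both held for 5 members, Sirt2, Cab39l, Slc36a1, Clec9a, and Fam91a1, and for 28 genes in all (0.276%), of which 23 are not members. Between the lowest Notch1+/ΔTAD library and the highest of the other 10, the 5 separated members had the 5 widest gaps of all genes, at 5.49 for Sirt2, 5.00 for Cab39l, 4.44 for Slc36a1, 3.59 for Clec9a, and 3.24 for Fam91a1 on the log2(TPM + 1) scale. These gaps depend on the pseudocount of 1 and are not fold changes. The next genes were Cd7, a receptor of early lymphoid cells (gap 2.96, from 140 TPM down to 17.2 TPM), Mrpl50, a mitochondrial ribosomal protein (2.70, 87.0 against 12.5 TPM), C1galt1c1 (1.12), Ska3 (1.09), and Cant1 (1.02). The narrowest gap inside the 28 was that of Cdk11b, at 160 against 155 TPM, and the members outside the 28 had gaps of -1.53 for Znhit1, -1.58 for Isca2, and -2.85 for Naa38.

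**Figure D2:**
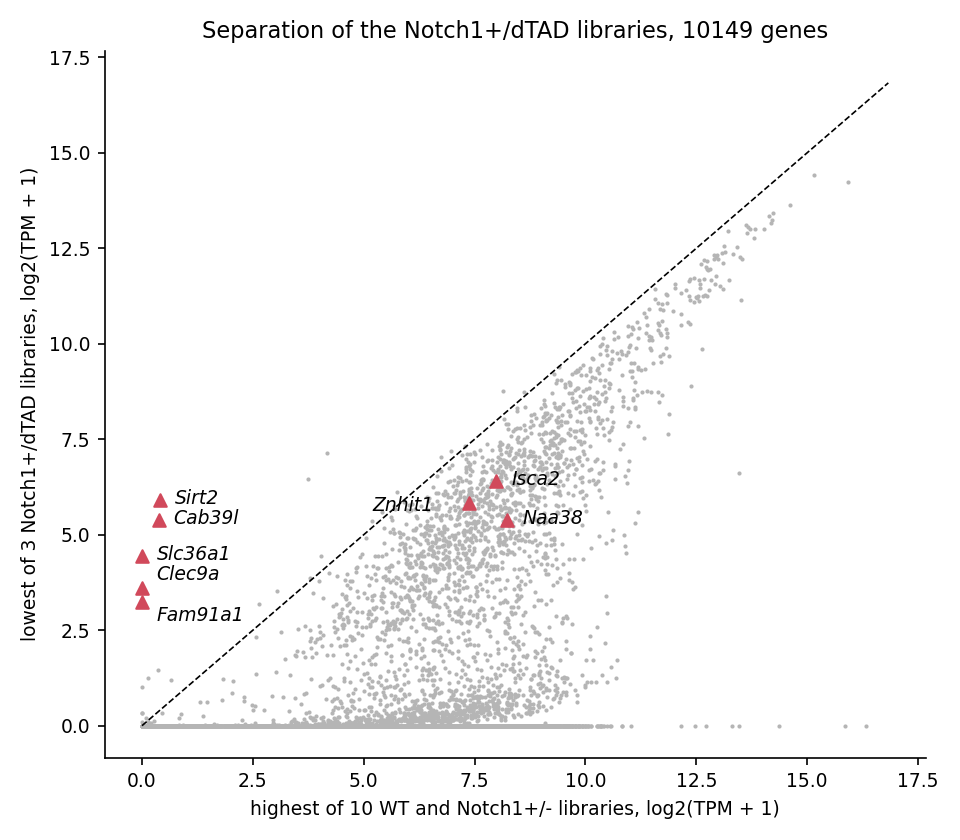
Each point is a gene, with its highest log2(TPM + 1) in the 10 WT and Notch1+/- libraries on the x axis and its lowest in the 3 Notch1+/ΔTAD libraries on the y axis. The dashed line marks equal values, 28 of 10149 genes lie above it, and the 5 separated members (triangles at the left) lie farthest above it, whereas Isca2, Naa38, and Znhit1 lie below it.

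A level in every Notch1+/ΔTAD library and values near 0 elsewhere went together only rarely. The place of the members among such genes follows from how they were chosen. Of 1994 genes at 1 TPM or more in all 3 Notch1+/ΔTAD libraries, 9 were under 1 TPM in each of the other 10, and 5 of these 9 were the separated members. At the level of Sirt2's lowest library, 58.8 TPM, 738 genes were at least that high in all 3 Notch1+/ΔTAD libraries, and Sirt2 was the only 1 of them under 1 TPM in all others. Slc36a1, Clec9a, and Fam91a1 were 3 of 7 genes with Notch1+/ΔTAD above 0 in every library and all other libraries at 0. The other 4 were Cant1, Fam92a, Zfp692, and Abcd3.

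Library numbers 1 to 9 and 10 to 14 each held all 3 genotypes, and what the numbers stand for is not stated. Numbers 1 to 9 held 2 Notch1+/ΔTAD, 3 WT, and 3 Notch1+/- libraries. There, Isca2 was at 279 TPM or more in Notch1+/ΔTAD and at most 93.6 TPM in Notch1+/-. Naa38 was at 40.9 TPM or more against 0, and Znhit1 at 56.3 TPM or more against up to 164 TPM. Numbers 10 to 14 held 1 Notch1+/ΔTAD, 2 WT, and 2 Notch1+/- libraries. In the Notch1+/ΔTAD library, Isca2 was at 84.2 TPM, Naa38 at 325 TPM, and Znhit1 at 65.9 TPM. Their highest Notch1+/- values in this range were 254, 302, and 0.550 TPM. In both ranges, Notch1+/ΔTAD was above WT for all 8 genes and above Notch1+/- for the 5 separated members. This follows from how they were chosen. How many of all genes separate within so few libraries was not counted.

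The members were also set against the number of genes in each library. All 8 were at 1 TPM or more in each Notch1+/ΔTAD library, whereas the number was 0 in each WT library and 0, 2, 0, 1, and 2 in Notch1+/- libraries 4, 5, 6, 12, and 13. Their summed level was 700 TPM in Notch1+/ΔTAD library 7, 1100 TPM in library 9, and 649 TPM in library 14. It was 258, 302, and 299 TPM in Notch1+/- libraries 5, 12, and 13, 0 in Notch1+/- libraries 4 and 6, and at most 0.300 TPM in WT. Every Notch1+/ΔTAD library had more genes at 1 TPM or more than every WT library, and the part of this in the members' separation from WT was not tested. Notch1+/- libraries 12 and 13 had 4207 and 4736 such genes. Each of the 5 separated members was at 0.330 TPM or less in both, but low values there were part of their choice. In libraries 12 and 13, Naa38 was at 302 and 44.5 TPM, Isca2 at 0 and 254 TPM, and Znhit1 at 0 and 0.550 TPM.

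**Figure D3:**
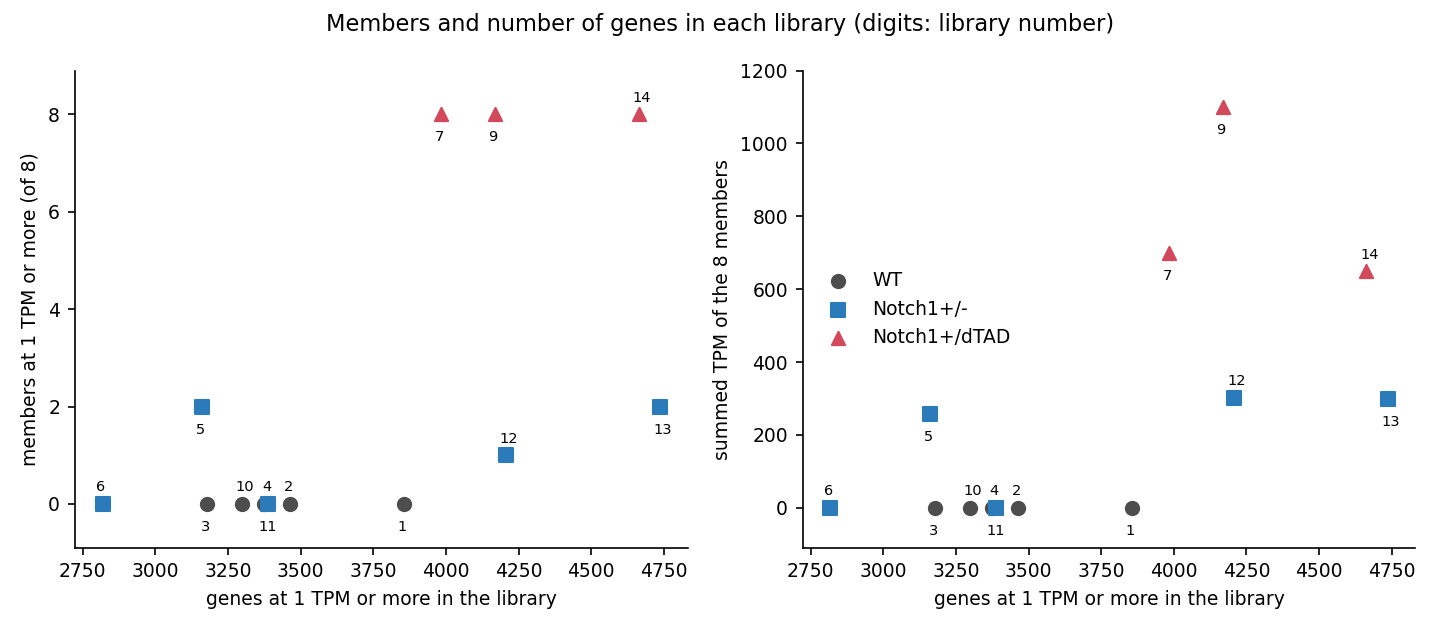
Each point is a library, marked with its number and colored by genotype, with its number of genes at 1 TPM or more on the x axis and, on the y axis, how many of the 8 genes were at 1 TPM or more (left) or their summed TPM (right). The 3 Notch1+/ΔTAD libraries have all 8 genes and 649 to 1100 TPM, whereas Notch1+/- library 13 has the most genes of all and 2 of the 8.

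Notch1+/- and WT values are set side by side without a test, because low values in these libraries were part of the choice. Slc36a1, Clec9a, and Fam91a1 were at 0 in all 10 of them. The mean log2(TPM + 1) was higher in Notch1+/- than in WT by 2.91 for Isca2 and 2.75 for Naa38, each above 0 in 2 of 5 Notch1+/- and 0 of 5 WT libraries. For Znhit1 the difference was 1.54, with 2 of 5 Notch1+/- libraries and 1 of 5 WT libraries above 0. Sirt2 and Cab39l, each at 0.330 TPM or less in all 10, differed by 0.08 and -0.04. These differences are on the log2(TPM + 1) scale and are not fold changes.

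Over the 13 libraries, the members' log2(TPM + 1) were correlated, as a description over points that share the 3 high libraries and, for most genes, values of 0 in WT. Among the 5 separated members, Pearson's r was 0.907 to 0.998 over 10 pairs (median 0.981). In the 18 pairs that include Isca2, Naa38, or Znhit1, it was 0.454 to 0.835 (median 0.709). The genes most like the mean standardized profile of the 8, out of 6281 with 1 TPM or more in 3 libraries, were Ska3, a kinetochore protein (r = 0.950), Mrpl50 (0.946), Cd7 (0.905), Ecpas, a proteasome adaptor (0.873), and the transcription factor Rfx7 (0.873). Ska3 stayed low, at 1.75, 6.19, and 3.60 TPM in the Notch1+/ΔTAD libraries 7, 9, and 14. Mrpl50 was at 87.0, 138, and 148 TPM and Cd7 at 402, 276, and 140 TPM in the same libraries.

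Reads could be shared with overlapping genes, because the sources used here do not state whether strand was used to assign them. Cdadc1 covers the 3′ end of Cab39l on the opposite strand. It was at 0, 297, and 76.3 TPM in the Notch1+/ΔTAD libraries 7, 9, and 14, at 99.3 and 37.0 TPM in WT libraries 2 and 3, and at 0 in the other 8. The part of Cdadc1 in the level of Cab39l was not tested. Tmem88 covers the 3′ end of Naa38 on the opposite strand and was above 0 only in Notch1+/- library 5 (91.1 TPM), where Naa38 was at 0. Nfkbib overlaps Sirt2, Clec1b overlaps Clec9a, and Plod3 overlaps Znhit1 away from their 3′ ends. Slc36a1, Fam91a1, and Isca2 overlapped no annotated gene.

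The proteins that work with the members were examined next, gene by gene. None of the direct partners followed the pattern of its member in all 3 genotypes. Sirt1, the nuclear relative of Sirt2, was at 0 in all 3 Notch1+/ΔTAD libraries and at 3.91 TPM or less elsewhere. The summed level of the other 6 sirtuins was 11.9 to 26.0 TPM in Notch1+/ΔTAD, within the range of WT (1.09 to 230 TPM) and of Notch1+/- (0 to 636 TPM).

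Cab39, the paralog of Cab39l, was at 0, 35.9, and 39.7 TPM in the Notch1+/ΔTAD libraries 7, 9, and 14. In WT, library 2 had 0.150 TPM and the other 4 had 33.5 to 50.3 TPM, and in Notch1+/-, 3 libraries were at 0 and the other 2 at 0.915 and 7.37 TPM. In WT, Cab39 was thus above Cab39l in 4 of 5 libraries and below it in library 2. Stk11, which encodes LKB1, was at 4.01, 35.3, and 0.270 TPM in Notch1+/ΔTAD, at 0 to 6.29 TPM in WT, and at 0 to 44.0 TPM in Notch1+/-. Strada was above 0 only in Notch1+/ΔTAD library 7 (41.6 TPM) and Notch1+/- library 5 (136 TPM). Slc36a4, a relative of Slc36a1, was above 0 only in WT libraries 2 and 3, at 24.4 and 47.7 TPM.

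Of the other genes of dendritic cells, the transcription factor Irf8 was above 0 in all 13 libraries. Its level was 1389, 976, and 786 TPM in the Notch1+/ΔTAD libraries 7, 9, and 14, and 300 to 1129 TPM in WT (limma log2 fold change 0.68, standard error 0.55, adjusted p = 0.972). Other genes of the list varied. Batf3, Itgae, Tlr3, Zbtb46, and Cd209a were at 0 in all 13 libraries, and Xcr1 was above 0 only in Notch1+/- library 12 (40.8 TPM). Cadm1 was at 14.5, 0.640, and 0 TPM and Naaa at 8.56, 4.29, and 0 TPM in the Notch1+/ΔTAD libraries 7, 9, and 14, and both were at 0.893 TPM or less elsewhere. Wdfy4, which serves cross-presentation, was at 25.7, 19.6, and 6.62 TPM in these libraries, at 0 to 125 TPM in WT, and at 0 to 138 TPM in Notch1+/-. Itgax, which encodes CD11c, was at 96.2 TPM in library 9 and 0 in libraries 7 and 14, and reached 93.4 TPM in WT library 2 and 25.8 TPM in Notch1+/- library 6. Cd74, the invariant chain of MHC class II, was at 424, 452, and 462 TPM in Notch1+/ΔTAD and at 0 to 393 TPM in the other 10. It was thus 1 of the 28 genes without overlap. Genes of MHC class II itself did not follow it. In libraries 7, 9, and 14, H2-Aa was at 287, 0, and 55.7 TPM and H2-Ab1 at 0, 73.4, and 118 TPM. H2-Eb1 was at 142, 0.757, and 168 TPM, Siglech at 489, 83.0, and 4.55 TPM, and Ccr9 at 60.3, 0, and 10.2 TPM. The values of each overlapped those of WT and of Notch1+/-. The summed level of the 17 dendritic cell genes other than Clec9a was 1611 to 2840 TPM in Notch1+/ΔTAD, 749 to 2228 TPM in WT, and 1018 to 1719 TPM in Notch1+/-. Of the 17, 5 were at 0 in every library. The part of such cells in the level of Clec9a was not tested.

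Fam91a1 works with Tbc1d23 and Wdr11 at the trans-Golgi. Tbc1d23 was at 83.5, 0, and 17.6 TPM in the Notch1+/ΔTAD libraries 7, 9, and 14 and at 0.300 TPM or less in the other 10. Tbc1d23 was thus listed at 0 in library 9, which had the most Fam91a1. Wdr11 was at 0 in all Notch1+/ΔTAD libraries and reached 99.1 TPM in WT library 10.

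Isca1, the partner of Isca2, was at 0, 10.9, and 209 TPM in the Notch1+/ΔTAD libraries 7, 9, and 14 and at 131 TPM in WT library 1. Iba57, which acts with both, was above 0 only in WT library 1 (7.08 TPM). In library 7, where Isca2 was at 279 TPM, Isca1 and Iba57 were thus both listed at 0. Naa30, the catalytic subunit of NatC, was at 6.83, 6.22, and 0 TPM and its subunit Naa35 at 0.273, 148, and 57.0 TPM in Notch1+/ΔTAD, and both were also present in WT libraries (up to 8.59 and 441 TPM). Naa30 was listed at 0 in library 14, which had the most Naa38. Among SRCAP genes, Srcap was above 0 only in WT library 1 (15.5 TPM), Actr6 in WT libraries 2 and 10, Notch1+/- library 13, and Notch1+/ΔTAD library 14, and Vps72 in all 13 (16.5 to 767 TPM).

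**Figure D4:**
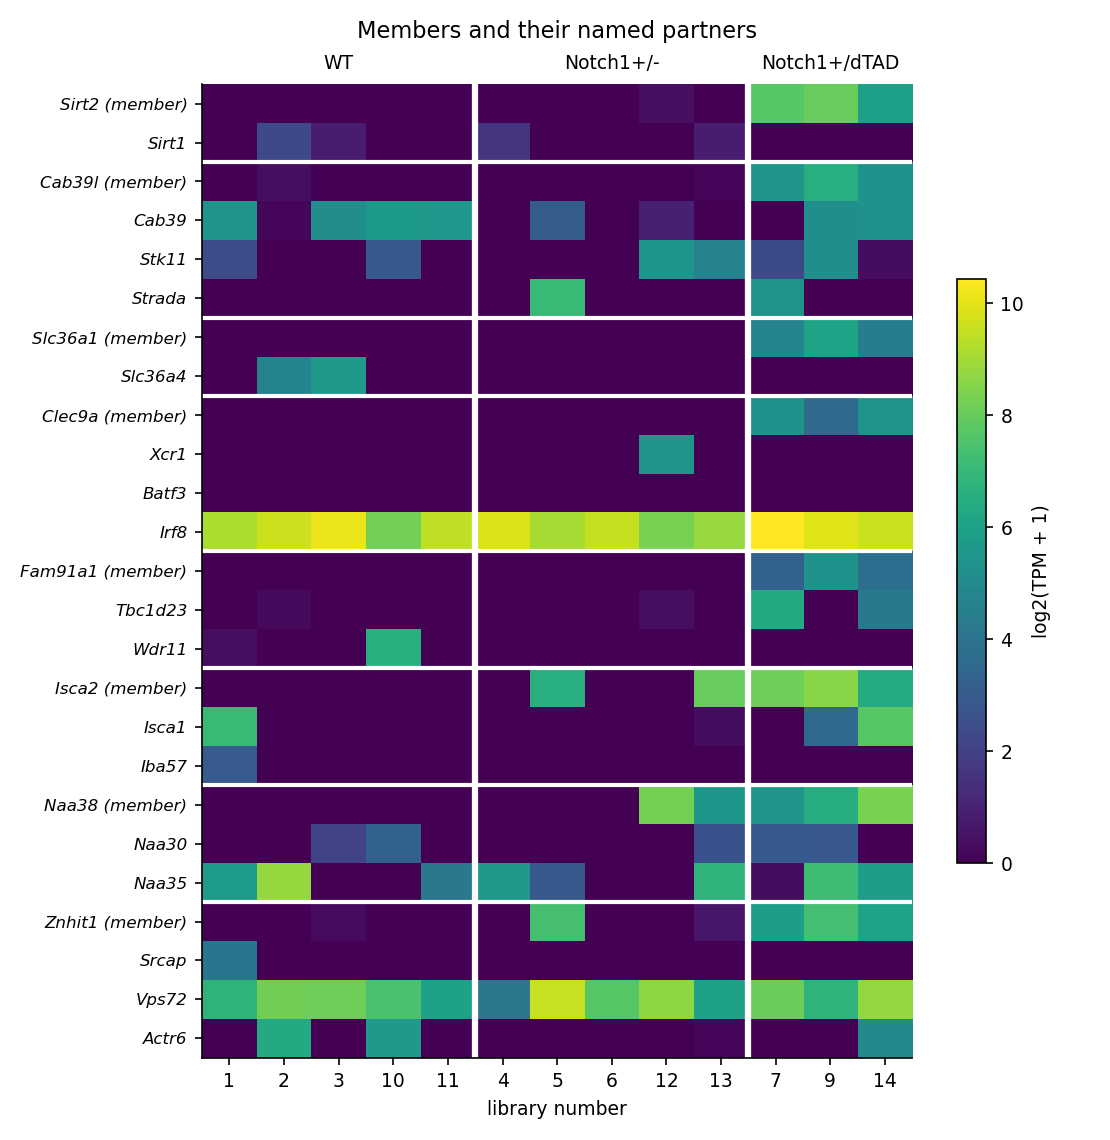
Color gives log2(TPM + 1) for each member and, under it, its direct partners or nearest relatives (vertical axis) in each library (horizontal axis, by library number, with the genotypes divided by white lines). The members fill the 3 Notch1+/ΔTAD columns, and none of the genes under them fills those 3 and is dark in WT.

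The wider lists of partners, 8 lists with 114 genes other than the members, were compared with limma. In Notch1+/ΔTAD against WT, 63 of the 114 could be tested, and 0 passed at an adjusted p under 0.05, as did 0 of all 4737 genes tested (0%). At an unadjusted p under 0.05 there were 3 of the 63 (4.76%), against 5% of all genes. All 3 were higher in Notch1+/ΔTAD. They were Cd74 (log2 fold change 5.09, standard error 2.08, adjusted p = 0.923), Lamtor3 of the lysosomal Ragulator complex (4.86, 2.21, 0.952), and the acetyltransferase gene Kat5 (4.75, 1.92, 0.923). The median log2 fold change of the 63 was 0.79, beside 0.47 for all genes, and quantile normalization moved the latter to -0.02. It also changed the genes at an unadjusted p under 0.05 from 196 higher and 41 lower to 136 and 69.

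In Notch1+/ΔTAD against Notch1+/-, 77 of the 114 were tested. None passed after adjustment (0 of 6281 genes, 0%), and 5 (6.49%), all higher, had an unadjusted p under 0.05, beside 5.33% of all genes. They were Lamtor5 (log2 fold change 6.36), Ep400 (4.45), Rraga (4.40), Isca1 (3.69), and Mrgbp (2.41), each with a limma adjusted p of 0.932. Ragulator and Rag proteins hold mTORC1 at the lysosome. Ep400, Mrgbp, and Kat5, the last named only against WT, belong to a complex related to SRCAP. Against WT, the log2 fold changes were 4.29 for Lamtor5, 0.87 for Ep400, 1.31 for Rraga, 2.35 for Isca1, and 2.02 for Mrgbp. None of these had an unadjusted p under 0.05 there. Against Notch1+/-, the median was 1.22 for the 13 tested genes of the lysosomal list. It was 0.73 for the 17 of the SRCAP and EP400 list. Both comparisons share the Notch1+/ΔTAD libraries, so they are not separate evidence. The median of the 77 was 0.59, beside 0.35 for all genes.

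In Notch1+/- against WT, 41 partners were tested and 0 passed after adjustment (0 of 3178 genes, 0%). At an unadjusted p under 0.05 there were 2 (4.88%, beside 5.35% of all genes), both lower in Notch1+/-. These were Cab39 (log2 fold change -3.59, standard error 1.40, adjusted p = 0.853) and Ep400 (-3.57, 1.22, 0.756). Cab39 was near 0 in 4 of 5 Notch1+/- libraries and at 33.5 TPM or more in 4 of 5 WT libraries. The median of the 41 was -0.31, beside 0.06 for all genes.

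By list, the tested sirtuins had a median log2 fold change of -1.55 in Notch1+/ΔTAD against WT (3 genes, 0 of them above 0). The medians were 0.34 for LKB1 and AMPK complexes (4 genes), 1.37 for lysosomal amino acid transport and sensing (10 genes), and 1.10 for dendritic cell markers (7 genes). For trans-Golgi vesicle tethering the median was 1.20 (4 genes), for iron-sulfur cluster assembly 0.49 (9 genes), for N-terminal acetyltransferases 0.73 (9 genes), and for SRCAP and EP400 complexes 0.79 (17 genes). Of the 8 lists, the sirtuins were the only list with a median below 0 in this comparison, beside 0.47 for all genes. LKB1 and AMPK complexes were below that value as well. The genes that passed the filter had to be listed in at least 3 of the 8 libraries, so these medians describe part of each list. In Notch1+/ΔTAD against Notch1+/-, the medians were -0.65 for sirtuins (3 genes) and -0.20 for dendritic cell markers (9 genes). In Notch1+/- against WT, they were 0.34 (2 genes) and 1.46 (7 genes).

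**Figure D5:**
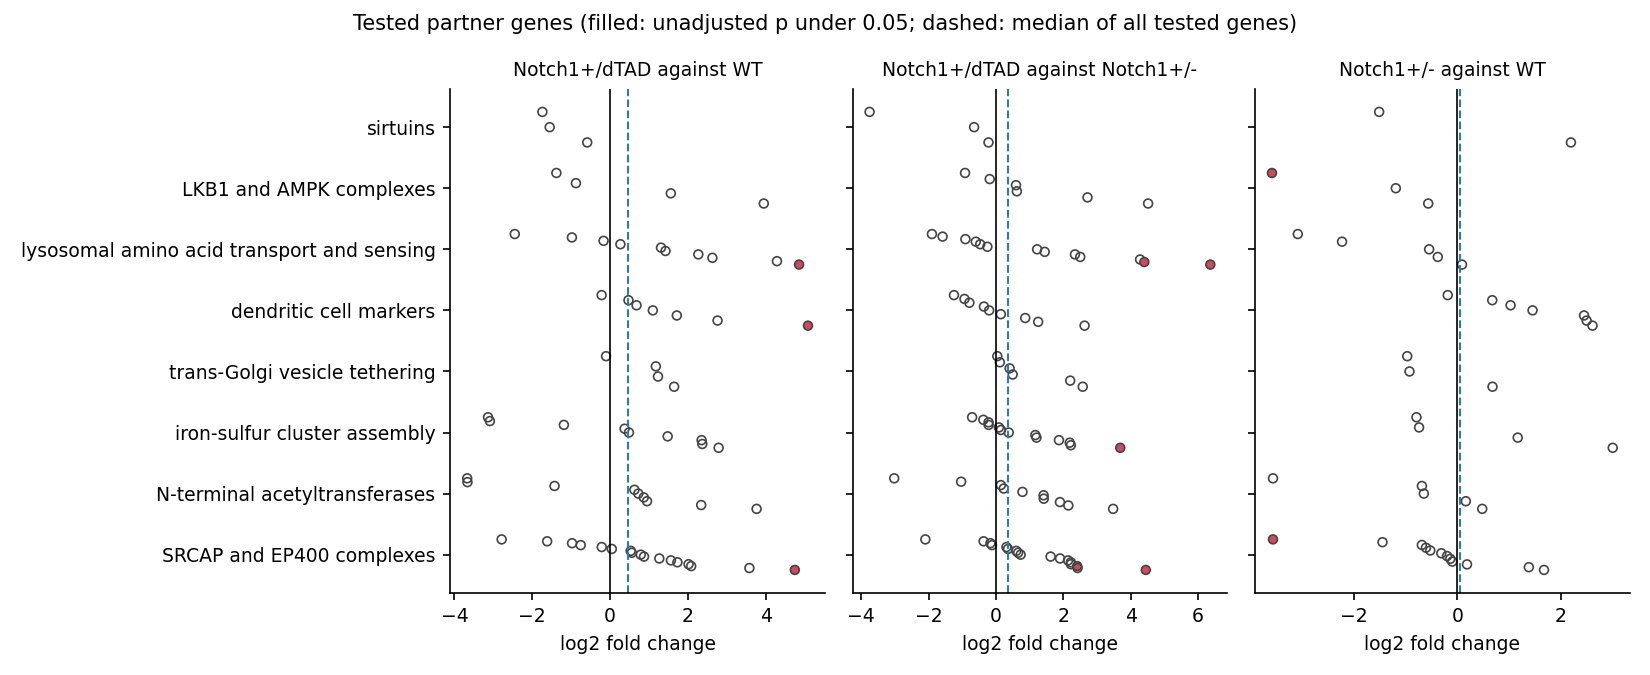
Each point is the limma log2 fold change of 1 tested gene, without the members, by list (vertical axis) in the 3 comparisons (panels). Filled points had an unadjusted p under 0.05 (3, 5, and 2 genes), the solid line is at 0, and the dashed line is the median of all tested genes (0.47, 0.35, and 0.06).

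Markers of other cell types were summed in each library beside the members. B lineage genes summed to 103 to 1783 TPM in Notch1+/ΔTAD, 155 to 1810 TPM in WT, and 145 to 2038 TPM in Notch1+/- libraries. Myeloid genes summed to 366 to 2042 TPM, 436 to 2461 TPM, and 450 to 1512 TPM in the same order. Of 10 erythroid genes, 8 were at 0 everywhere and the sum was at most 17.6 TPM, and of 9 T and NK genes, 6 were at 0 everywhere, with a sum of up to 262 TPM in Notch1+/ΔTAD, 1309 TPM in WT, and 36.7 TPM in Notch1+/-. The ranges of all 4 lists overlapped between genotypes, but the medians differed. In Notch1+/ΔTAD, WT, and Notch1+/-, the median sums were 1882, 873, and 729 TPM for myeloid genes. They were 1061, 542, and 371 TPM for B lineage genes and 9.09, 2.97, and 0 TPM for T and NK genes. In Notch1+/ΔTAD, Nkg7 was the only T and NK gene above 0. The highest Nkg7 value, 1122 TPM, was in WT library 10. The part of these lists in the members' levels was not tested.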

How the data were processed

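CLP RNA of 13 mice (5 WT, 5 Notch1+/-, 3 Notch1+/ΔTAD) was read with a stranded 3′ kit, 1 library per mouse. After trimming and STAR alignment to mm10, the authors deposited TPM of 24972 genes in 2 tables, 1 per mutant beside the same WT values. Each library sums to 1000000 TPM. The tool, annotation, and filter behind the TPM are not given in the sources used here, read counts were not used here, and no limit can be set on a value of 0.

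Genotypes were compared on log2(TPM + 1) by limma 3.58.1 in R 4.3.3 (lmFit, eBayes with trend, 2-sided, Benjamini-Hochberg over all genes tested). A gene was tested where it reached 1 TPM in 3 libraries, or in 5 for Notch1+/- against WT. A model of all 13 libraries gave Notch1+/ΔTAD against Notch1+/-. The 8 members did not pass this filter in Notch1+/- against WT. Annotation came from GENCODE M21 and promoter windows from RefSeq (GRCm38.p6).

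The members and the gene lists were chosen with earlier results of these data known. Genes named are the members, list genes with an unadjusted p under 0.05, direct partners and gate markers, overlapping genes, and the 5 genes nearest to the members by correlation and by gap. The gate genes, Notch1, Cdk11b, Cadm1, Naaa, Wdfy4, Itgax, and genes at 0 in all other libraries were named after their values were seen where that rule does not give them. The same holds for H2-Aa, H2-Ab1, H2-Eb1, Siglech, Ccr9, and Nkg7. Alternatives were other pseudocounts, filters, scalings, and models, and leaving out each library. The scripts were tested on simulated data.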

Additional observations from a re-analysis of the deposited data

Results flagged for a closer look

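Of 13 groups of 5 libraries examined, for members with a value above 0 and for the numbers of genes, 6 held 1 library that lay apart from the other 4. With normally distributed values, chance would place about 1 in 20 groups (0.65 of 13) past this limit. Groups mostly at 0 pass it easily, and low values in most of these groups were part of the members' choice. The 6 can therefore not be read against 0.65. In Notch1+/- mice, Sirt2 was at 0.330 TPM and Naa38 at 302 TPM in library 12, Cab39l was at 0.133 TPM in library 13, and Znhit1 was at 164 TPM in library 5. In WT mice, Cab39l was at 0.300 TPM in library 2 and Znhit1 at 0.237 TPM in library 3. The 2 high values, of Naa38 and Znhit1, fell in different libraries.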

How the results depend on the processing

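No paired analysis was possible because library numbers are not shared between genotypes. Without a trend in eBayes, 15 genes passed in Notch1+/ΔTAD against WT, 3 in Notch1+/ΔTAD against Notch1+/-, and 2 in Notch1+/- against WT, instead of 0. Members made up 5 of the 15, 2 of the 3, and 0 of the 2. They were chosen on these values, so their passing is no separate evidence. With the trend, 237, 335, and 170 had an unadjusted p under 0.05. Leaving out 1 library gave 0 to 0 genes in each comparison, as did the other pseudocounts, filters, and scalings. The number of genes without overlap was 28, 22 after quantile normalization, and 31 to 152 with 1 library left out. It was 145, 136, and 152 without Notch1+/ΔTAD library 7, 9, or 14, 47 without WT library 2, and 46 without Notch1+/- library 13, since fewer libraries must differ. Members made up 5 of these genes each time, and 6 without Notch1+/- library 5 or without Notch1+/ΔTAD library 14. Leaving out a library cannot remove a separated member from this count, so its constancy says nothing about processing. The difference of Cab39l between Notch1+/- and WT was -0.0756 to 0.0360 with 1 library left out and changed sign without WT library 2, its only WT library above 0. In the comparisons with Notch1+/ΔTAD, 13 of 136 against Notch1+/- and 20 of 136 member values against WT moved by more than the replicate SD and 0 changed sign. The signs against WT largely follow from how the members were chosen. So do those of the 5 separated members against Notch1+/-. With TPM and no counts, depth limits what a value of 0 can say.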
